A study of Homo sapiens with 12 samples.

Results

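The replication-dependent histone genes lie in clusters on chromosomes 6, 1 and 12, and encode the bulk of the linker histone H1 and the core histones H2A, H2B, H3 and H4. They were taken here as the rows of the deposited count table whose name starts with HIST1H, HIST2H, HIST3H or HIST4H and does not contain PS. At least 10 counts summed over the 12 libraries were also required. PS marks a named pseudogene, although GENCODE 29 annotates HIST2H3PS2 as protein-coding. The name pattern held 90 rows, of which 14 contained PS and 6 had under 10 counts, so that 70 genes of the 57500 in the table remained. They comprised 6 H1, 14 H2A, 22 H2B, 13 H3 and 15 H4 genes, 51 of them in the HIST1 cluster on chromosome 6, 14 in HIST2 and 4 in HIST3 on chromosome 1, and 1, HIST4H4, on chromosome 12. By GENCODE 29 annotation, 64 were protein-coding and 5 were pseudogenes without PS in the name (HIST2H2BA, HIST2H2BB, HIST2H2BD, HIST3H2BA and HIST2H3DP1), and HIST2H2BC was not matched. The study sequenced total RNA of 2 established cell lines from triple-negative breast cancer, HCC1806 and MDA-MB-468, with and without CRISPR-Cas9 depletion of PACT, a double-stranded RNA binding protein encoded by PRKRA. The 4 groups of 3 libraries were HCC1806 with the control guide sgC1, HCC1806 with the PRKRA guide sgPACT-2, MDA-MB-468 with the control guide sgNTA, and MDA-MB-468 with sgPACT-2. All groups had a guide, the control guide differed between the lines, and 1 PRKRA guide was used, so that line and control guide cannot be told apart, nor can loss of PACT and another effect of that guide.

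Replication-dependent histone mRNAs are made in S phase, when new DNA needs new nucleosomes, and are destroyed when replication stops. They are the only metazoan mRNAs known to end without a poly(A) tail: a short hairpin after the stop codon, the stem-loop, is bound by the stem-loop binding protein SLBP, and the U7 small nuclear RNP directs the cut just downstream of it. Libraries made from rRNA-depleted total RNA, as here, read these transcripts, whereas selection for poly(A) tails loses most of them. H1 binds the linker DNA between nucleosomes, while H2A, H2B, H3 and H4 form the nucleosome core.

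The libraries held 18640633 to 24704877 counts for HCC1806, and those of MDA-MB-468 34581754 to 44790741. Levels are given as CPM, the counts of a gene scaled to the library's size with edgeR's TMM factors. PRKRA, the targeted gene, had 77.8 ± 5.30 CPM in the HCC1806 controls and fell to 36.9 ± 0.774 CPM in the depleted libraries (SD, n = 3; edgeR log2 fold change -1.07, SE 0.10, adjusted p = 1.70e-05). In MDA-MB-468 it measured 44.7 ± 3.12 and 38.8 ± 3.09 CPM, with overlapping groups (edgeR adjusted p = 0.958), so that depletion in this line is taken from the labels. The epithelial marker EPCAM measured 197 ± 30.7 and 179 ± 7.74 CPM in the control libraries of HCC1806 and MDA-MB-468. Of the 3 receptors that define triple-negative tumours by their absence, PGR measured 0.0573 ± 0.0645 and 0.0101 ± 0.0176 CPM, ESR1 20.9 ± 1.81 and 6.67 ± 0.410 CPM and ERBB2 194 ± 14.2 and 139.8 ± 5.02 CPM in these groups, so that RNA of the last 2 was present in both lines. The labels do not say whether the 3 libraries of a group came from separate cultures, so the p-values measure only the spread between these libraries, which may be technical.

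The stem-loop is shown here because it is what sets these genes apart from other mRNAs. A hairpin of GGCNCTT and AGNGCC separated by 3 bases with T in the middle (N, any base) was searched on the transcript strand of GENCODE 29 transcripts. It was present in 32 of the 69 matched histone genes and in 16 of 58607 other genes, or 0.0273%. These other genes are all those outside the 70, so histone genes left out by the rule are among them. Of the matched histone genes without the letters, 29 had models that hold the coding sequence only and end before the place of the stem-loop. No match there says only that these letters are not in the model. Another 8 had models of other kinds without the letters. The lines below give 1 gene for each of the 6 forms found, with 5 bases on each side; capitals mark the 6-base arms of the stem around a 4-base loop in lower case, and T stands for U.
HIST2H2BE: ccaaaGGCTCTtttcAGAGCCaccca
HIST1H2BC: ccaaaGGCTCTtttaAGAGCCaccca
HIST1H2AG: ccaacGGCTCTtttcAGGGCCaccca
HIST1H3E: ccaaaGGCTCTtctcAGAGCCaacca
HIST1H4H: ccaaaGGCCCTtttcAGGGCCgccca
HIST2H4A: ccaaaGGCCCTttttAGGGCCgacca
The form of HIST2H2BE was found in 16 H2A, H2B and H3 genes, and that of HIST1H2BC in 5 H2B and H3 genes. The form of HIST1H2AG was found in 2 genes and that of HIST1H3E in 1. The forms of HIST1H4H, in 5 genes, and HIST2H4A, in 3, were found in H4 genes alone among the 70.

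Upstream sequence also followed the histone class. RefSeq (GRCh38.p14) gave the 250 bases before the start of 59 of the 70 genes, and 4 motifs were searched on both strands: the octamer ATTTGCAT, the CCAAT box, the TATA box TATAAA and the H1 box AAACACA. The octamer was present in 10 of 13 H2A and 13 of 17 H2B promoters and in 0 of 6 H1, 10 H3 and 13 H4 promoters, against 1.66% of 27305 promoters of this length. The H1 box was present in 6 of 6 H1 promoters and in no other histone promoter, against 4.95% of all. CCAAT was present in every H1, H2A, H2B and H3 promoter searched and in 3 of 13 H4 promoters, against 33.0% of all, and TATAAA in 39 of 59, against 11.1%. Matches to different motifs did not overlap in any of the 59. The promoters below are those of HIST1H1A, the only gene of the 70 that passed the test after PACT depletion, of HIST1H2BC, which shares its promoter with HIST1H2AC on the other strand, and of HIST1H4F, which had a large difference between the lines. Capitals mark the motif matches on either strand, and a match is a description of the letters and not of a bound site.
HIST1H1A, chr6:26017788-26018037, minus strand: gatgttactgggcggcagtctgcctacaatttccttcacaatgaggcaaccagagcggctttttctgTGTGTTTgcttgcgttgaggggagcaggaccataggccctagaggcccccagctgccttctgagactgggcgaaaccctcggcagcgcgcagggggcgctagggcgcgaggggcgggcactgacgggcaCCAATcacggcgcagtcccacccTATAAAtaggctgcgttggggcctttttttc
HIST1H2BC, chr6:26123927-26124176, minus strand: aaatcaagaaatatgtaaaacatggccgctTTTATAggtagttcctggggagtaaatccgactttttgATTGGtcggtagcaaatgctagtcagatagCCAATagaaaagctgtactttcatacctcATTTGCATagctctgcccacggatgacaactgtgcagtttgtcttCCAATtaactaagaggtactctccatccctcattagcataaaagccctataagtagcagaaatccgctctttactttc
HIST1H4F, chr6:26240143-26240392, plus strand: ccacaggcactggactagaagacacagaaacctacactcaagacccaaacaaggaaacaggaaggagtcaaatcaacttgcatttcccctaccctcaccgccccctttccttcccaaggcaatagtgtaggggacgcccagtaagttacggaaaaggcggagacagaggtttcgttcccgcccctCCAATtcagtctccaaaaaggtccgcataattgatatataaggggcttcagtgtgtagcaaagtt
HIST1H1A held an H1 box starting 183 bases before the start (on the other strand), a CCAAT box at 54 and a TATA box at 31. The HIST1H2BC stretch held the octamer at 123, CCAAT boxes at 78, 152 and 182 and a TATA box at 220 (the last 2 on the other strand), and HIST1H4F held only CCAAT, at 65.

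Histone transcripts made up a larger part of the reads in MDA-MB-468 than in HCC1806. The 70 genes summed to 1831, 1942 and 2599.6 CPM in the 3 HCC1806 control libraries and 2079, 1478 and 1834 CPM in the depleted ones. In MDA-MB-468 they summed to 5308, 5504 and 4734 CPM in the controls and 5548, 4977 and 4109.6 CPM in the depleted libraries. The 6 libraries of MDA-MB-468 thus lay above the 6 of HCC1806, while within each line the guides overlapped. As group means the sums were 2124 ± 415 and 1797 ± 303 CPM in HCC1806, and 5182 ± 400.2 and 4878 ± 724 CPM in MDA-MB-468 (SD, n = 3). As a share of all counts the 70 genes took 0.170% (95% Wilson interval 0.168% to 0.171%) in the lowest HCC1806 library and 0.277% (0.274% to 0.279%) in the highest. In MDA-MB-468 the share ran from 0.375% (0.373% to 0.377%) to 0.494% (0.492% to 0.496%); these intervals cover counting error only. In bulk RNA, fewer cells in S phase and less histone RNA per cell cannot be told apart.

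**Figure D1:**
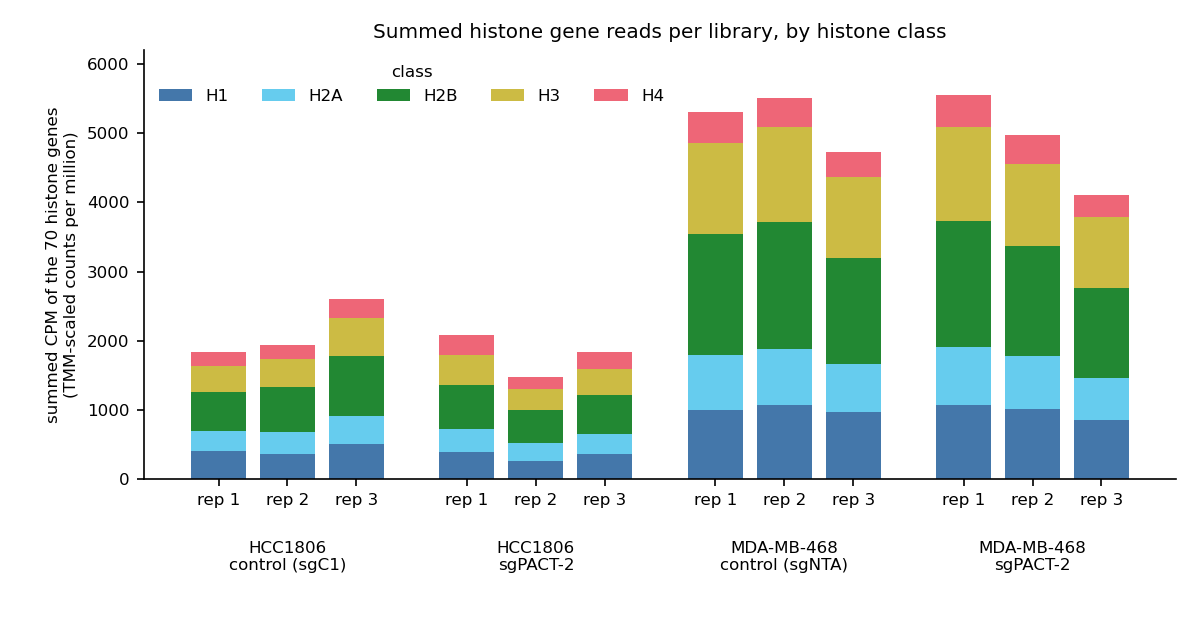
Summed CPM of the 70 histone genes (y axis) in each of the 12 libraries (x axis, 3 replicates per group), stacked by histone class. The HCC1806 bars end between 1478 and 2599.6 CPM and the MDA-MB-468 bars between 4109.6 and 5548 CPM, with H2B the largest class in each library.

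By class, H2B contributed most, with 689.8 ± 154 CPM in the HCC1806 controls and 1704 ± 162 in the MDA-MB-468 controls. H3 followed with 445 ± 90.5 and 1293 ± 98.8 CPM, and H1 with 422 ± 75.8 and 1009 ± 48.5 CPM. H2A gave 340.5 ± 63.7 and 769 ± 64.2 CPM, and H4 227 ± 44.2 and 406 ± 43.9 CPM (SD, n = 3 each). In HCC1806 the SDs of H1 and H3 span each other's means, so their order there is not resolved. Per kilobase of annotated exon, which allows genes to be compared, the highest levels in the HCC1806 controls were 233 CPM per kb for HIST1H3C, 206 for HIST1H3B, 197 for HIST1H2BK and 191 for HIST1H1C. In the MDA-MB-468 controls they were 707 CPM per kb for HIST1H2BK, 636 for HIST1H3B, 622 for HIST1H1B and 443 for HIST1H3C. The models of these 5 genes hold the coding sequence only, which raises a value per kb against genes whose models run on past the stem-loop. HIST1H2BK also shared 74.1% of its 50-base words with other genes. At least 50% of these words were shared in 16 of the 69 matched genes, and the counts of those 16 are uncertain.

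The control libraries of the lines differed in most of the histone genes. MDA-MB-468 was higher in 49 of the 66 genes that passed the filter on low counts and lower in 8 (edgeR, adjusted p under 0.05), whereas over all 27029 genes tested 34.2% were higher and 40.1% lower (57 of 66 in either direction, against 74.2%). The log2 difference was above 0 in 54 and below 0 in 12, against 44.9% and 55.1% of all genes. The 3 control libraries of one line all lay above those of the other for 50 genes higher in MDA-MB-468 and 7 lower, against 35.8% and 41.8%. The median log2 difference was 1.13 (quartiles 0.50 and 1.45), against -0.26 over all genes tested. At least 1 log2 unit higher were 40 of the 66, against 24.3% of all genes, and the summed CPM was 2.44 times that of HCC1806. Removing GC and length trends of each library, a setting added after seeing the data, moved the median to 2.08. The 4 genes not tested (HIST2H3C, HIST2H2AA4, HIST2H4B and HIST1H4G) had at most 0.217 CPM in any library.

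**Figure D2:**
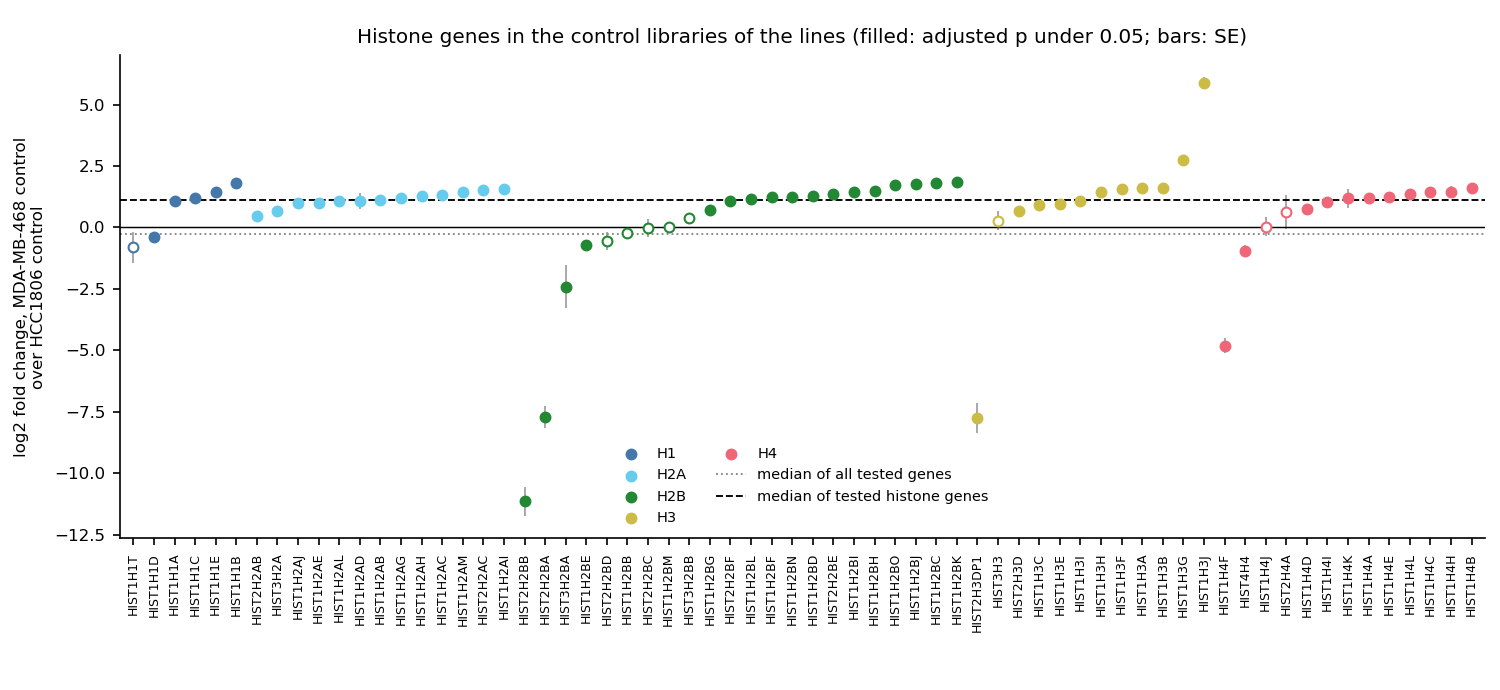
Log2 fold change of each of the 66 tested histone genes between the control libraries (y axis, MDA-MB-468 over HCC1806; bars, SE), grouped and coloured by class along the x axis, with filled points for adjusted p under 0.05. Most points lie near the dashed median of 1.13, with HIST1H3J and HIST1H3G above 2 and HIST2H2BA, HIST2H2BB, HIST3H2BA, HIST2H3DP1 and HIST1H4F below -2.

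Among the H1 genes, HIST1H1B had the largest difference. HIST1H1B (ENSG00000184357, chromosome 6, 27866849 to 27867529, minus strand; GRCh38, as are all coordinates here) encodes the linker histone H1.5. It measured 123, 97.2 and 143 CPM in the HCC1806 controls and 404, 455 and 412 CPM in the MDA-MB-468 controls, with no overlap (edgeR log2 fold change 1.81, SE 0.17, adjusted p = 5.06e-08). HIST1H1C was also higher, at 284 ± 12.4 against 122 ± 20.3 CPM, as was HIST1H1E, at 177 ± 9.02 against 64.3 ± 16.2 CPM (log2 differences 1.21 and 1.46). HIST1H1D went the other way, with 85.5, 69.6 and 101 CPM in HCC1806 and 58.6, 72.0 and 62.6 CPM in MDA-MB-468 (edgeR log2 fold change -0.40, SE 0.17, adjusted p = 0.0378). Its groups overlapped, and it was chosen for mention after its values were seen. HIST1H1T, a testis form, had at most 0.701 CPM in any library and did not pass.

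All 13 tested H2A genes were higher in MDA-MB-468, by 0.45 to 1.57 log2 units. HIST1H2AC (ENSG00000180573, chromosome 6, 26124145 to 26139116, plus strand) gave 56.3, 64.2 and 72.1 CPM in the HCC1806 controls and 167, 164 and 153 CPM in the MDA-MB-468 controls (edgeR log2 fold change 1.33, SE 0.13, adjusted p = 4.04e-08). HIST1H2BC, across the shared promoter, gave 58.8, 65.4 and 80.5 CPM in HCC1806 and 243, 249 and 218 CPM in MDA-MB-468 (edgeR log2 fold change 1.79, SE 0.14, adjusted p = 1.97e-09). Neither gene's lines overlapped. The other well counted H2A genes, HIST1H2AE and HIST1H2AG, gave 66.9 ± 15.5 and 50.6 ± 14.9 CPM in the HCC1806 controls and 133 ± 12.5 and 115 ± 12.1 CPM in those of MDA-MB-468 (log2 differences 1.00 and 1.18). Of the 22 H2B genes 13 were higher and 4 lower, with HIST1H2BK at 1.84, HIST1H2BJ at 1.75 and HIST1H2BD at 1.27 log2 units.

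HIST1H3J and HIST1H3G were the 2 genes more than 2 log2 units higher in MDA-MB-468. HIST1H3J (ENSG00000197153, chromosome 6, 27890382 to 27893106, minus strand) was low in HCC1806, with 1.21, 2.06 and 1.69 CPM in the controls, and reached 90.9, 109.6 and 92.3 CPM in MDA-MB-468. The fold was 59.1 (edgeR log2 fold change 5.88, SE 0.23, adjusted p = 4.51e-13). Its annotated span overlaps HIST1H2AM on the same strand, and 40.9% of its 50-base words were shared with other genes, so part of its counts is uncertain. HIST1H2AM measured 9.70 ± 1.84 and 26.4 ± 4.38 CPM in the same groups. HIST1H3G (ENSG00000273983, chromosome 6, 26269405 to 26271815, minus strand), which shared none of these words, gave 21.1, 21.7 and 27.5 CPM in the HCC1806 controls and 161, 166 and 139 CPM in the MDA-MB-468 controls (edgeR log2 fold change 2.73, SE 0.18, adjusted p = 2.29e-10). The best counted H3 genes, HIST1H3B, HIST1H3C and HIST1H3I, differed by 1.62, 0.93 and 1.08 log2 units. The protein-coding H3 genes of the clusters other than HIST3H3 encode the replicative forms H3.1 or H3.2.

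HIST1H4F ran against most other H4 genes. HIST1H4F (ENSG00000274618, chromosome 6, 26240426 to 26240737, plus strand) gave 45.2, 46.1 and 73.2 CPM in the HCC1806 controls and 2.62, 2.13 and 1.12 CPM in the MDA-MB-468 controls, 28.2-fold lower in the latter (edgeR log2 fold change -4.82, SE 0.30, adjusted p = 1.68e-10). HIST4H4, alone on chromosome 12, was also lower, at 5.83 ± 0.933 against 11.2 ± 1.91 CPM (edgeR log2 fold change -0.95, SE 0.24, adjusted p = 0.00162). In contrast, HIST1H4B, HIST1H4D and HIST1H4H were 1.61, 0.75 and 1.46 log2 units higher in MDA-MB-468, among 9 of 13 tested H4 genes. HIST1H4F shared no 50-base word with another gene, and its 6 HCC1806 libraries (78.6, 45.8 and 72.6 CPM in the depleted ones) all lay above its 6 MDA-MB-468 libraries.

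The pseudogenes HIST2H2BA, HIST2H2BB and HIST2H3DP1, from chromosome 1, were read almost only in HCC1806. HIST2H2BB (ENSG00000240929, chromosome 1, 143875171 to 143904650, minus strand) had 7.80, 9.71 and 11.6 CPM in the HCC1806 controls and 0 counts in all 3 MDA-MB-468 controls, at least 351-fold lower with a floor of 3 counts over the group. HIST2H2BA had 334 counts over the HCC1806 controls and 2 over those of MDA-MB-468, a ratio of 259.9 (exact 95% interval 71.4 to 2155, counting error only). HIST2H3DP1 had 202 and 1 counts, a ratio of 314 (55.8 to 12477). These genes shared 94.8%, 73.6% and 64.9% of their 50-base words with other genes. HIST2H2BD, another pseudogene there, was read in both lines, with 1.13 ± 0.350 CPM in the HCC1806 controls and 0.765 ± 0.173 CPM in those of MDA-MB-468 (edgeR adjusted p = 0.172). Also lower in MDA-MB-468 were the pseudogene HIST3H2BA (0.0574 ± 0.0558 against 0.316 ± 0.133 CPM) and the coding gene HIST1H2BE (13.4 ± 0.520 against 22.3 ± 4.96 CPM, log2 difference -0.73).

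Some histone genes are known from other cells to make poly(A)-tailed forms as well, and 9 of them were listed (HIST1H1C, HIST1H2AC, HIST1H2BC, HIST1H2BD, HIST1H2BJ, HIST1H2BK, HIST2H2BE, HIST1H4H and HIST3H2A). All 9 were higher in the MDA-MB-468 controls (median log2 difference 1.36), against 40 of the other 57 tested (median 1.09). HIST2H2BE (ENSG00000184678, chromosome 1, 149884459 to 149886652, minus strand) gave 56.1, 66.6 and 85.9 CPM in the HCC1806 controls and 180.4, 201 and 154 CPM in the MDA-MB-468 controls, with no overlap. Grouped by their models, the 29 genes annotated with the coding sequence only differed by 1.21 log2 units in summed CPM. The 11 whose model runs under 300 bases past the stem-loop differed by 1.39, and the 21 with at least 300 bases past it by 1.28. Counts per gene do not separate tailed from untailed transcripts.

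In HCC1806, PACT depletion was followed by a lower level of 1 of the 66 tested histone genes, HIST1H1A, and by a higher level of 0 (edgeR, adjusted p under 0.05). Over all genes tested 2.49% were called, 1.16% higher and 1.32% lower, so that 1 of 66 is a share near this background. At an unadjusted p under 0.05 there were 12 lower and 4 higher genes, 16 of 66 against 14.5% of all genes, and DESeq2 also called 1, HIST1H1A, against 2.78% of all genes. Leaving out depleted replicate 1 raised the called histone genes to 7, of which 6 were lower, while the share called over all genes rose to 6.15%. Leaving out control replicate 3 or depleted replicate 2 took the called histone genes to 0, against 1.87% and 1.35% of all genes. The log2 value was below 0 in 47 of the 66, against 48.5% of all genes tested, and the median was -0.23 (quartiles -0.33 and 0.02), against 0.01 over all genes. That median was -0.09 without control replicate 3 and -0.09 without depleted replicate 2, and -0.35 without control replicate 1 or without depleted replicate 1. The summed CPM of the depleted libraries was 0.846 times that of the controls, with overlapping groups.

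**Figure D3:**
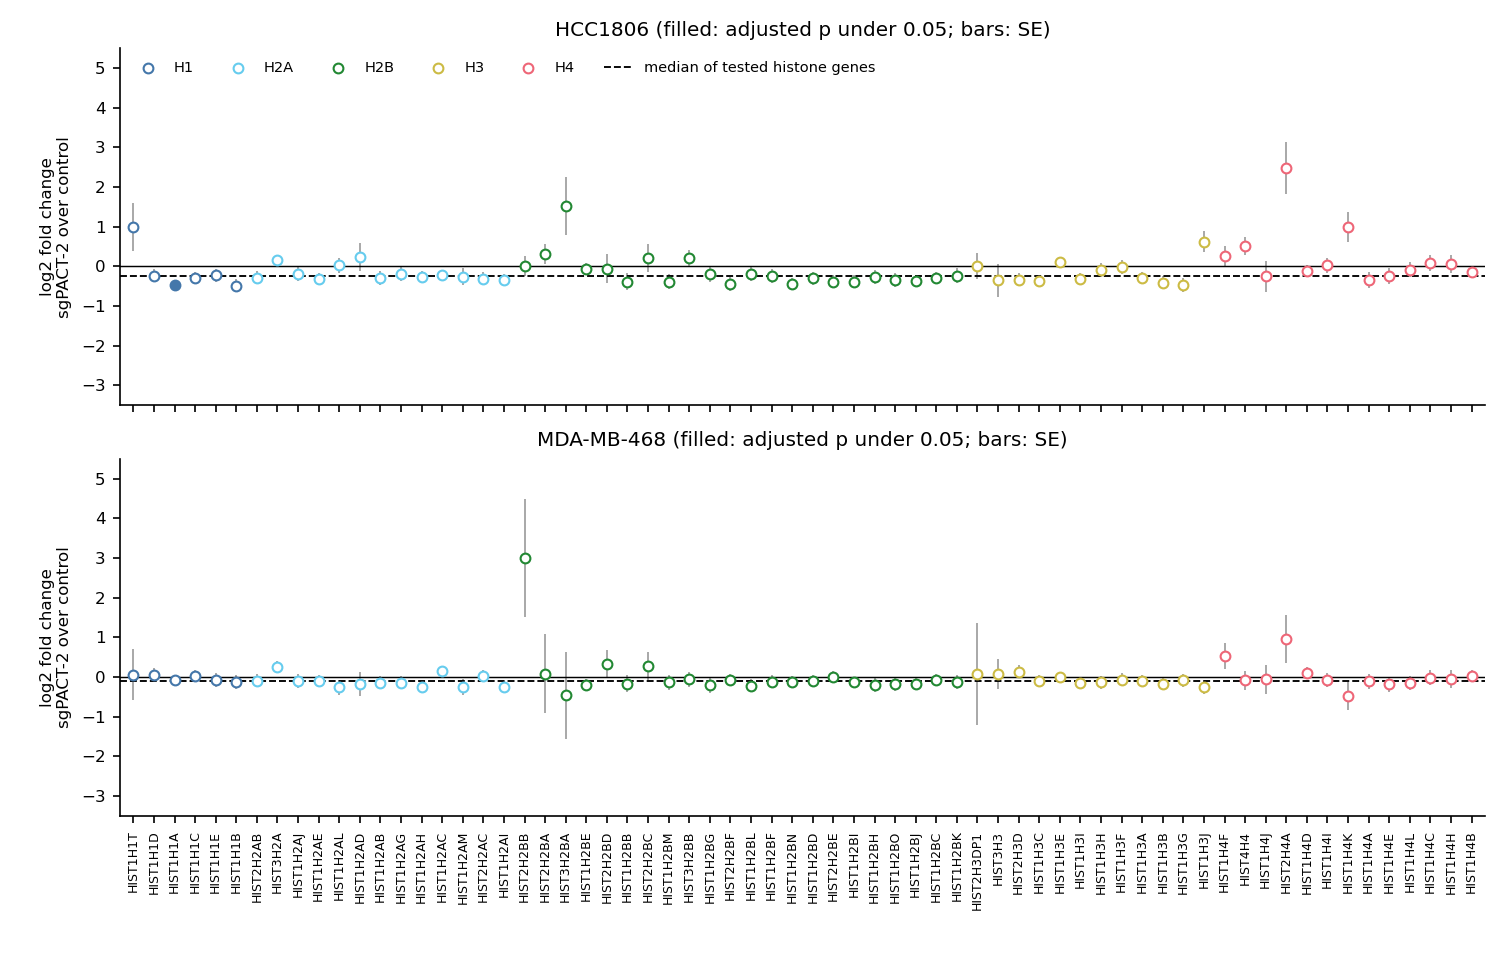
Log2 fold change of each of the 66 tested histone genes after PACT depletion (y axis, sgPACT-2 over control guide; bars, SE) in HCC1806 (top) and MDA-MB-468 (bottom), grouped by class in the same order along the x axis. HIST1H1A in HCC1806 is the single filled point (adjusted p under 0.05), and the dashed medians lie at -0.23 and -0.10.

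HIST1H1A (ENSG00000124610, chromosome 6, 26017085 to 26017732, minus strand), which encodes the linker histone H1.1, fell from 27.1, 26.3 and 31.7 CPM in the controls to 21.3, 19.0 and 20.6 CPM in the depleted libraries. The groups did not overlap (edgeR log2 fold change -0.48, SE 0.11, adjusted p = 0.0250). In MDA-MB-468 it gave 60.4, 60.8 and 59.5 CPM in the controls and 57.6, 61.1 and 52.7 CPM in the depleted libraries, with overlapping groups (log2 value -0.08, SE 0.10). The call in HCC1806 was lost without control replicate 3 (adjusted p = 0.0887), without depleted replicate 2 (0.0951), with library size only (0.0963) and with HCC1806 fitted alone (0.205). The other H1 genes had the same sign except HIST1H1T. HIST1H1B gave 123, 97.2 and 143 CPM against 111, 62.1 and 85.6 CPM (edgeR log2 fold change -0.49, SE 0.17, adjusted p = 0.166), with overlap, and HIST1H1C gave 122 ± 20.3 against 100.4 ± 17.5 CPM (adjusted p = 0.353).

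The core histone genes were read the same way. The H2A, H2B and H3 genes had medians of -0.27, -0.26 and -0.31 log2 units in HCC1806, and none passed. HIST2H2BE gave 56.1, 66.6 and 85.9 CPM in the controls and 54.1, 47.7 and 57.9 CPM in the depleted libraries (edgeR log2 fold change -0.39, SE 0.16, adjusted p = 0.242), with overlapping groups. HIST1H2BN and HIST2H2BF were the only other genes whose 3 depleted libraries all lay below the controls, chosen for mention after their values were seen (log2 values -0.44 and -0.44, adjusted p = 0.164 and 0.202). The depleted libraries all lay above the controls in 5 genes (HIST1H1T, HIST2H2BA, HIST3H2BA, HIST1H4K and HIST2H4A), so that 3 of the 66 did not overlap with depleted lower and 5 with depleted higher. Over all genes 8.17% had groups that did not overlap with depleted below control, and 8.51% with depleted above. The 3 best counted H2A genes, HIST1H2AC, HIST1H2AE and HIST1H2AG, had log2 values of -0.22, -0.32 and -0.20, and the 3 best counted H2B genes, HIST1H2BK, HIST1H2BC and HIST1H2BD, of -0.23, -0.29 and -0.30. Of the 9 genes with known poly(A)-tailed forms 0 passed (median -0.29, and -0.23 for the others). Among the highest H3 genes, HIST1H3C gave 95.8 ± 17.6 and 74.1 ± 11.9 CPM and HIST1H3B 84.7 ± 18.8 and 63.9 ± 15.0 CPM (adjusted p = 0.231 and 0.265).

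The 13 tested H4 genes had a median of 0.02 log2 units, with 6 below 0. Their summed CPM was 197, 207 and 278 in the controls and 290.3, 174 and 245 in the depleted libraries, while that of H3 was 384, 403 and 549 in the controls and 428, 301 and 378 in the depleted libraries. HIST4H4 gave 9.01, 12.4 and 12.3 CPM in the controls and 21.9, 9.97 and 16.0 CPM in the depleted libraries (edgeR log2 fold change 0.51, SE 0.23, adjusted p = 0.314), with overlap. HIST2H4A, just outside the threshold, gave 0.292, 0 and 0.466 CPM in the controls and 1.96, 0.823 and 1.54 CPM in the depleted libraries (edgeR log2 fold change 2.47, SE 0.66, adjusted p = 0.0594), but 97.5% of its 50-base words were shared, so its counts are uncertain. HIST1H4K, all of whose words were shared, gave 1.21, 1.03 and 0.889 CPM in the controls and 1.91, 1.60 and 2.67 CPM in the depleted libraries (edgeR adjusted p = 0.208). Whether the H4 genes differ from the other classes in their response was not tested.

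In MDA-MB-468 no histone gene passed in either direction after PACT depletion (edgeR, 0 of 66). Over all genes 0.17% were called, all of them higher. At an unadjusted p under 0.05 there were also 0 histone genes, against 5.27% of all genes, and DESeq2 called 0, against 0.234%. The fit reported shares 1 estimate of the spread between the lines. With MDA-MB-468 fitted alone (edgeR), 0 of 61 tested histone genes passed, against 1.51% of all genes. In that fit 6 of the 61 had an unadjusted p under 0.05, against 10.6% of all genes. The log2 value was below 0 in 48 of 66, against 50.9% of all genes, with a median of -0.10 (quartiles -0.16 and 0.02), against -0.01 over all. Without depleted replicate 3 the median was 0.01 with 38 values above 0, and without depleted replicate 1 it was -0.20, so its sign rests on the first of these libraries.

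In MDA-MB-468 the 3 smallest p-values among genes with a positive log2 value were those of HIST2H2BB, HIST3H2A and HIST1H4F, and among those with a negative one those of HIST1H2AH, HIST1H2AI and HIST1H3J. HIST3H2A, the H2A gene of the HIST3 cluster, gave 27.6, 27.6 and 26.1 CPM in the controls and 35.6, 30.9 and 30.4 CPM in the depleted libraries, the only gene whose depleted libraries all lay above the controls (edgeR log2 fold change 0.26, SE 0.14, adjusted p = 1.00). HIST1H2BE was the only gene with all depleted libraries below the controls, by a gap under the rounding (13.4 ± 0.520 CPM in the controls and 11.7 ± 0.966 CPM in the depleted libraries). Over all genes 6.2% and 6.94% did not overlap in these directions. HIST1H2AH gave 60.2 ± 4.75 and 50.3 ± 9.88 CPM, HIST1H2AI 50.2 ± 3.31 and 42.5 ± 8.84 CPM, and HIST1H3J 97.6 ± 10.4 and 81.6 ± 8.87 CPM. Their log2 values were -0.26, -0.24 and -0.26, all at an adjusted p of 1. The best counted genes had overlapping guides: HIST1H1B gave 404, 455 and 412 CPM in the controls and 427, 401 and 339.8 CPM in the depleted libraries (log2 value -0.12, SE 0.17), and HIST1H2BC 243, 249 and 218 CPM in the controls and 257, 226 and 196 CPM in the depleted libraries (-0.06, SE 0.13). The class medians were -0.02 for H1, -0.14 for H2A, -0.13 for H2B, -0.09 for H3 and -0.06 for H4. HIST1H4F stayed low, at 2.62, 2.13 and 1.12 CPM in the controls and 3.79, 2.38 and 2.21 CPM in the depleted libraries, and HIST2H2BB had 0 counts in the controls and 3 in the depleted libraries, too few for a fold.

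**Figure D4:**
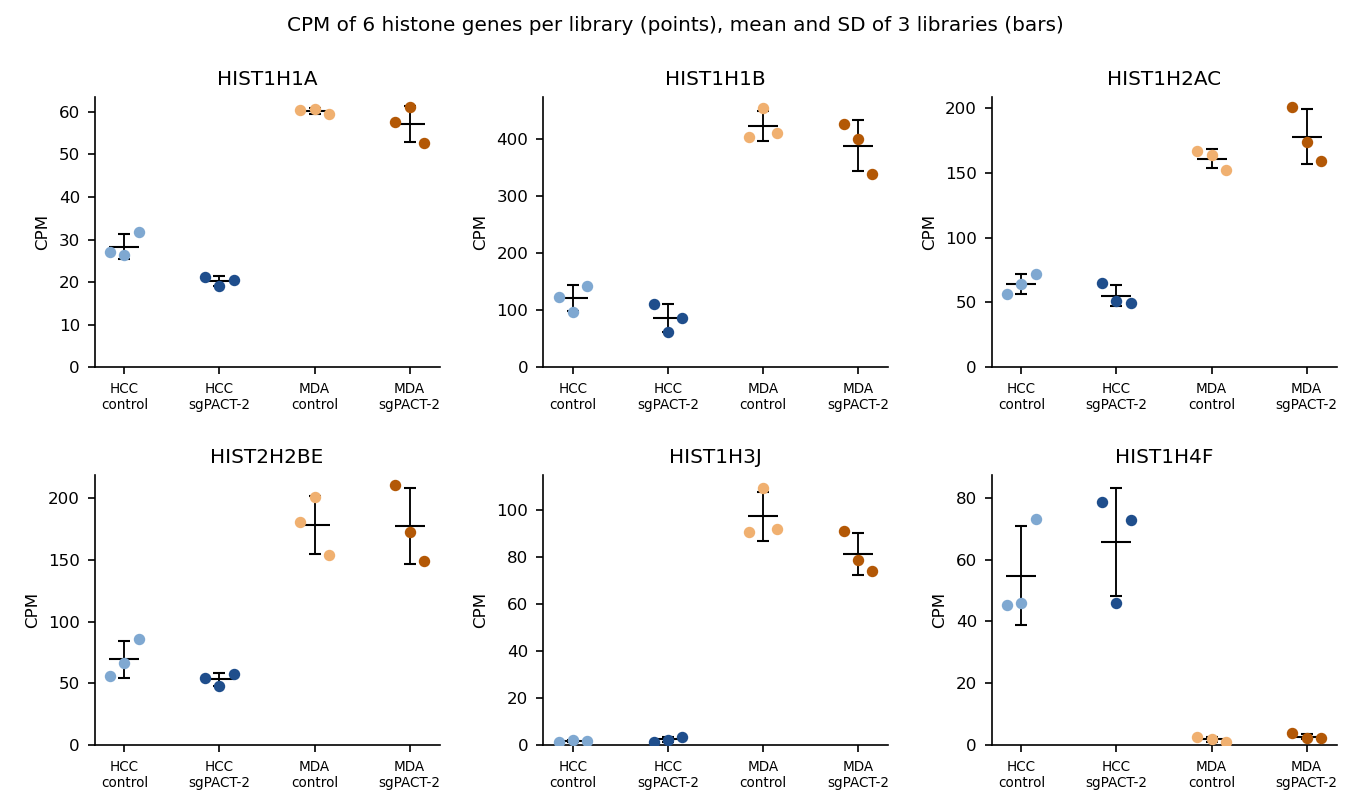
CPM (y axis) of 6 histone genes in each library (points) with the mean and SD of 3 libraries (bars), for control and sgPACT-2 libraries of HCC1806 (HCC) and MDA-MB-468 (MDA). HIST1H1A falls in HCC1806 without overlap, HIST1H3J is under 4 CPM in every HCC1806 library and HIST1H4F under 4 CPM in every MDA-MB-468 library.

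The effects of the guide in the 2 lines were compared by the interaction term, the effect in MDA-MB-468 minus that in HCC1806. No histone gene passed (edgeR, 0 of 66, DESeq2 also 0; 0.122% of all genes, 0.0222% higher and 0.0999% lower), and 3 of 66 had an unadjusted p under 0.05, against 8.39% of all genes. These were HIST1H4K (log2 difference -1.47, SE 0.51, adjusted p = 0.410), HIST1H3J (-0.88, SE 0.32, adjusted p = 0.423) and HIST1H1A (0.41, SE 0.15, adjusted p = 0.438). HIST2H3D, HIST1H2AC and HIST4H4 followed at 0.47, 0.36 and -0.59 log2 units. The fall of HIST1H1A in HCC1806 is therefore not shown to differ from its value in MDA-MB-468. The median over the 66 genes was 0.16, against -0.01 over all genes tested.

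The spread between libraries of a group was wider for the histone genes than for genes in general, and it was shared among them. In HCC1806 the SD of log2(CPM + 0.5) within groups had a median of 0.274 over the 57 histone genes that averaged 50 counts or more, against 0.198 over the 15918 genes of the table that did. The same medians in MDA-MB-468 were 0.196 and 0.119. Control replicate 3 was the highest of the 6 HCC1806 libraries in 46 of the 57 histone genes, against 11.4% of all such genes. Depleted replicate 2 was the lowest in 42, against 11.5%. In MDA-MB-468 depleted replicate 3 was the lowest of 6 in 47 of the 57, against 18.9%. The median deviations from the control mean of the line were -0.22, -0.07 and 0.29 log2 units for the HCC1806 controls and -0.04, -0.47 and -0.22 for the depleted libraries. In MDA-MB-468 they were 0.05, 0.08 and -0.14 for the controls and 0.09, -0.06 and -0.36 for the depleted libraries. HIST3H2A and HIST1H3E, examples chosen after their values were seen, shared neither pattern: their highest HCC1806 library was a depleted one and their lowest MDA-MB-468 library a control.

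**Figure D5:**
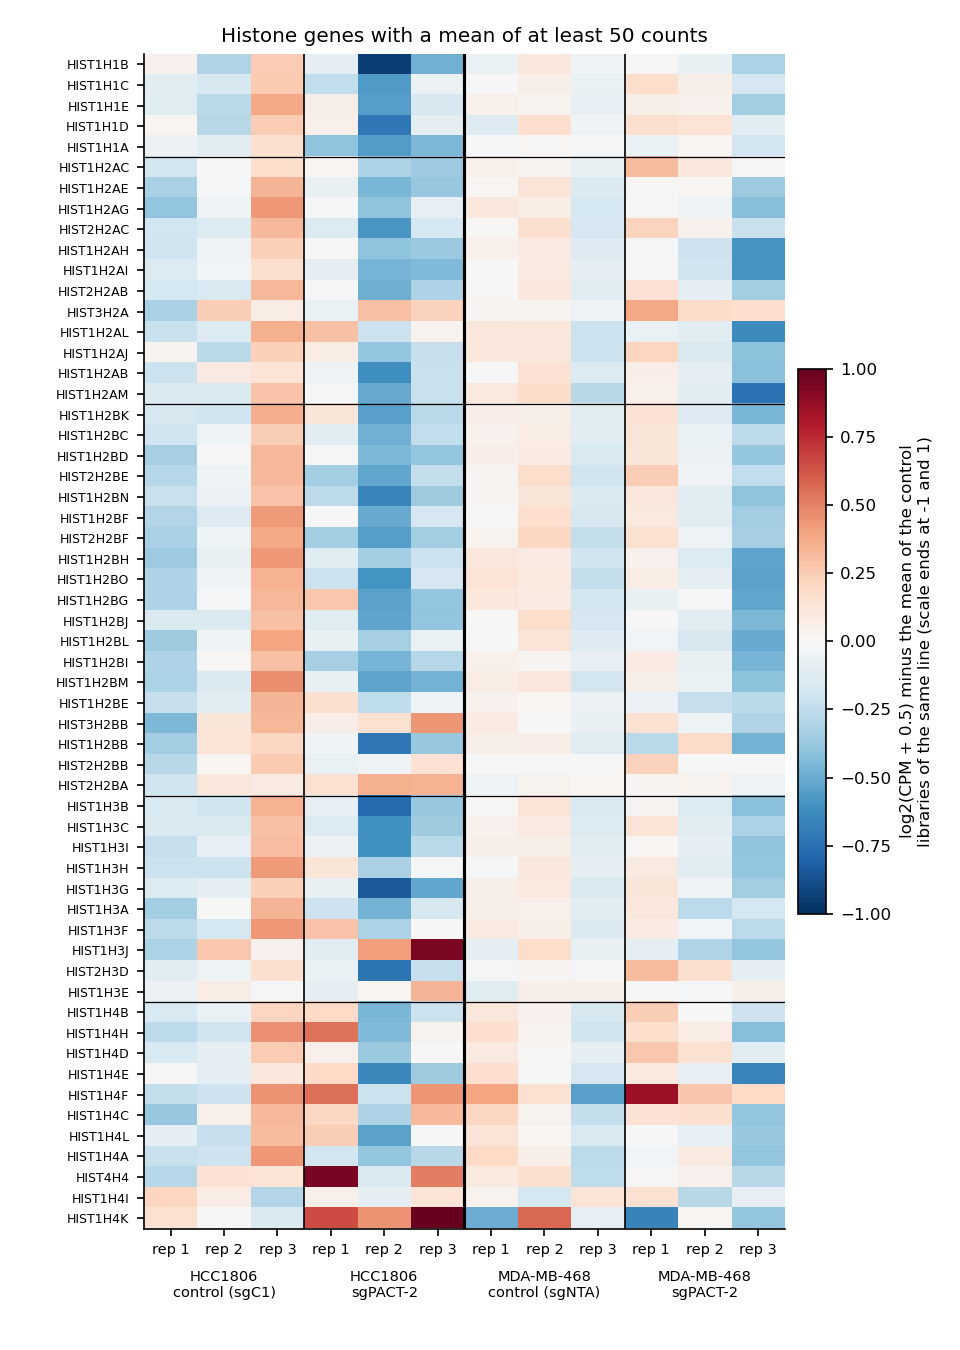
Deviation of log2(CPM + 0.5) from the mean of the control libraries of the same line (colour, red higher, blue lower; the scale ends at -1 and 1) for the 57 histone genes averaging 50 counts or more (rows, by class) in the 12 libraries (columns). HCC1806 control replicate 3 is red in most rows, and HCC1806 depleted replicate 2 and MDA-MB-468 depleted replicate 3 are blue in most rows.

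Genes that work with the histone mRNAs and proteins were counted from 4 lists. Of 24 tested genes for 3' end processing and turnover of histone mRNA, 0 passed after depletion in HCC1806 (median -0.05 log2 units) and 0 in MDA-MB-468. Over all genes tested 2.49% and 0.17% were called in these comparisons. In the MDA-MB-468 controls 19 were higher and 2 lower than in the HCC1806 controls, against 34.2% and 40.1% of all genes tested. SLBP, the stem-loop binding protein, gave 15.6, 14.3 and 14.9 CPM in the HCC1806 controls and 64.2, 62.8 and 61.4 CPM in the MDA-MB-468 controls (edgeR log2 fold change 2.07, SE 0.14, adjusted p = 3.43e-10), and after depletion 14.2 ± 3.03 and 60.8 ± 7.44 CPM. LSM10, a protein of the U7 particle, had 3.30 ± 0.575 and 4.82 ± 0.398 CPM in HCC1806 (edgeR log2 fold change 0.54, SE 0.16, adjusted p = 0.0992), and COIL, the scaffold of Cajal bodies, 16.2 ± 1.25 and 12.6 ± 0.276 CPM (edgeR log2 fold change -0.36, SE 0.11, adjusted p = 0.114). SNRPD3, which the U7 particle shares with the spliceosome, had a log2 value of -0.32 in HCC1806. In MDA-MB-468 the smallest p-values were those of COIL, CPSF1 and SYMPK, the last 2 of the cleavage machinery, at log2 values of 0.19, -0.14 and -0.11. NPAT, the activator of histone gene transcription, had 51.0 ± 3.70 and 50.2 ± 2.37 CPM in HCC1806. RNU7-1, the U7 RNA itself, had 0 counts in the 12 libraries.

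Of 28 S phase and DNA replication genes, 1 fell in HCC1806 and 0 rose, against 1.32% and 1.16% of all genes tested. In MDA-MB-468 0 passed, against 0.17% of all genes. The gene that fell was CCNA2, the cyclin A2 of S phase and G2, with 114, 76.0 and 71.5 CPM in the controls and 58.5, 58.8 and 48.2 CPM in the depleted libraries (edgeR log2 fold change -0.66, SE 0.15, adjusted p = 0.0250). PCNA, the replication clamp, gave 43.0 ± 2.28 and 33.2 ± 3.08 CPM and did not pass (edgeR log2 fold change -0.37, SE 0.10, adjusted p = 0.0551). MCM2, a subunit of the replicative helicase, had a log2 value of -0.35 in HCC1806, and in MDA-MB-468 LIG1 and PCNA had -0.20 and -0.10. Between the control libraries 19 of the 28 were higher in MDA-MB-468 and 4 lower, against 34.2% and 40.1% of all genes. The median of the 28 was 0.94 log2 units, beside 1.13 for the histone genes. The list summed to 2052, 1783 and 2009 CPM in the HCC1806 controls and 2020.4, 1661 and 1557 in the depleted libraries, so control replicate 3, the highest library for the histone genes, was not the highest here. In MDA-MB-468 the sums were 3258, 3303 and 3080.2 CPM in the controls and 3280.0, 2961 and 2878 CPM in the depleted libraries, lowest in depleted replicate 3 as for the histone genes. The part of S phase in the histone values was not tested.

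Of 19 histone chaperone and import genes, 1 fell in HCC1806: RBBP7, a histone-binding subunit of several chromatin complexes, went from 65.2, 56.1 and 59.0 to 45.2, 39.3 and 34.4 CPM (edgeR log2 fold change -0.60, SE 0.11, adjusted p = 0.00701). HJURP, the chaperone of CENPA, had a log2 value of -0.47 and did not pass, and in MDA-MB-468 ASF1B, NASP and RBBP7 had -0.18, -0.18 and -0.11. Of 11 replication-independent histone genes, which have poly(A)-tailed mRNAs and are expressed outside S phase, 1 rose and 2 fell in HCC1806. H1F0, the linker histone of differentiated and resting cells, rose from 73.8, 86.4 and 72.9 to 97.0, 134 and 163 CPM (edgeR log2 fold change 0.76, SE 0.15, adjusted p = 0.0118). CENPA, the centromeric H3, fell from 51.1, 38.8 and 38.0 to 30.1, 29.3 and 22.1 CPM (edgeR log2 fold change -0.65, SE 0.16, adjusted p = 0.0355), and H2AFV, an H2A.Z gene, from 42.2 ± 3.93 to 30.3 ± 5.81 CPM (edgeR log2 fold change -0.48, SE 0.12, adjusted p = 0.0456). Over the 4 lists 5 genes were called in HCC1806 (share called over all genes tested, 2.49%). There was 1 without control replicate 1 (share over all genes, 1.03%), and 20 without depleted replicate 1 (6.15%). There were 2 without depleted replicate 2 or 3 (1.35% and 1.71%) and 0 with HCC1806 fitted alone (0.315%). Leaving out any 1 MDA-MB-468 control or depleted replicate 2 of that line gave 3 (1.52% to 1.97%). In MDA-MB-468 0 genes of both lists passed, and H1F0 gave 59.6, 51.0 and 56.7 CPM in the controls and 73.2, 64.1 and 62.1 CPM in the depleted libraries. Of 15 tested other RNAs without a poly(A) tail (small nuclear, nucleolar and Cajal body RNAs, among others), 0 passed in either line. They summed to 6095, 6859 and 4395 CPM in the HCC1806 controls and 5956, 5776 and 3919.8 in the depleted libraries, with replicate 3 lowest in both groups and so in another order than the histone genes. Between the control libraries 5 of the 15 were higher in MDA-MB-468 and 2 lower, against 34.2% and 40.1% of all genes.

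Some genes of other marker lists were also called in HCC1806, where 2.49% of all genes tested were called, 1.16% higher and 1.32% lower. Of 6 epithelial markers 2 fell (EPCAM, edgeR log2 fold change -0.55, SE 0.13, adjusted p = 0.0335, and CDH1, edgeR log2 fold change -0.38, SE 0.09, adjusted p = 0.0373), and of 6 basal markers KRT5 fell (edgeR log2 fold change -0.92, SE 0.18, adjusted p = 0.0106). The 10 markers of immune, endothelial and stromal cells summed to 35.3, 48.1 and 38.6 CPM in the controls and 43.6, 57.3 and 58.4 CPM in the depleted libraries, with 0 of 7 tested past the threshold. COL1A1 gave 33.4 ± 6.43 and 44.5 ± 6.10 CPM of this, PTPRC 0.313 ± 0.207 and 0.221 ± 0.0769, and CD3E had 0 counts in both groups. The part of any of these in the histone values was not tested.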

How the data were processed

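The authors deposited 1 table of read counts per gene for 12 libraries of rRNA-depleted total RNA; per the submitters' processing notes the tools were Trimmomatic 0.36, STAR 2.5.2b and featureCounts (Subread 1.5.2) with GRCh38. The strand setting, the treatment of multiply mapped reads and the gene annotation are not given in the sources used here, so overlapping genes and near-identical copies are uncertain. Genes without a name took 0.0284% of the counts and were kept in the tests under their identifiers, with the same filter as the others. Gene models came from GENCODE 29, which matched 69 of the 70 histone genes by identifier, and promoters from RefSeq GRCh38.p14.

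The counts were fitted with edgeR 4.0.16 in R 4.3.3: filterByExpr, TMM factors, 1 quasi-likelihood model with 4 group coefficients, and Benjamini-Hochberg adjustment over 27029 genes. Contrasts compared sgPACT-2 with the control guide in each line, these effects with each other, and the control libraries of the lines. CPM were computed from the counts with TMM factors. DESeq2 1.42.0 was an alternative, beside other scalings, filters and models and leaving out each library. The fits were tested on simulated counts, with changed genes that averaged 20 counts or more in the line concerned. That minimum was set after a first simulation, in which genes were chosen on the mean over both lines, missed the recovery required in MDA-MB-468.

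The histone genes, the other gene lists and the rule for named genes were chosen with earlier results of these data known. Named genes were those called after depletion or, where 0 were called, the 3 smallest p-values in each direction; the 3 best counted genes of each class; the 6 called genes with the largest line differences in each direction among those averaging 50 counts or more in whichever line was higher; the poly(A) list; PRKRA; and the 3 smallest p-values of each pathway list in each line. The value of 1 gene under this rule is not reported here. Other names illustrate a role, a marker or a count, and were chosen after their values were seen.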

Additional observations from a re-analysis of the deposited data

How the results depend on the processing

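After depletion in HCC1806, the called histone genes numbered 1 (0 higher) in the fit reported, against 2.49% of all genes. They numbered 0 with that line fitted alone, against 0.315% of all genes. At an adjusted p under 0.01 they also numbered 0, against 160 of all 27029 genes. With library size only, 1 histone gene was called, HIST2H4A, which was higher, against 2.93% of all genes. Without the filter 8 were called (7 lower), against 3.04% of all genes. In MDA-MB-468 0 were called in every setting run, where 0.0696% to 1.51% of all genes were called. For the interaction 1 (lower) was called without the filter, against 0.62% of all genes. The adjusted p of HIST1H1A in HCC1806 ran from 0.000938 with DESeq2 to 0.205 with the line fitted alone. Library size only moved the median of all genes to 0.13 in HCC1806 and -0.51 between the lines, where the histone median was then 0.87 and the summed log2 ratio 1.03. The line median was 0.90 at a mean of at least 50 counts and 2.08 with GC and length trends removed (also 2.08 with the replicate block added). HIST1H4D in HCC1806 had a log2 value of 0.014 with library size only. The cause of these shifts was not tested.

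For each library the deviation of log2 CPM from its group mean was taken, and these deviations were correlated between control and depleted libraries over all genes tested. Same-numbered libraries correlated in these deviations at 0.231, 0.137 and 0.0771 in HCC1806 and 0.0284, 0.0156 and 0.0240 in MDA-MB-468. Libraries of different numbers ran from -0.223 to 0.143 and from -0.0337 to 0.00985. Over all genes tested, each control correlated most with the depleted library of its own number, except HCC1806 control replicate 2, which correlated slightly more with depleted replicate 3 (0.143). Over the histone genes, HCC1806 control replicate 3 correlated at -0.190 with depleted replicate 3 and at 0.454 with depleted replicate 1. MDA-MB-468 control replicate 2 correlated at 0.0556 with depleted replicate 2 and at 0.128 with depleted replicate 1. The other controls correlated most with their own number there. The labels state no pairing, and the fit reported used none. Whether the numbers pair the libraries is not settled by these values. With the replicate block, 10 histone genes were called in HCC1806 (9 lower; 7.2% of all genes), and 13 (12 lower; 8.32% of all genes) with GC and length trends also removed, against 2.49% of all genes in the fit reported; genes of the pathway lists numbered 16 under both. These pathway calls, 5 in the fit reported, were 9 with DESeq2 (share over all genes, 2.78%), 0 with the line fitted alone (0.315%) and 8 without the filter (3.04%). For the interaction DESeq2 called 1, against 0.392% of all genes.

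Leaving out 1 library at a time gave 0 to 7 called histone genes in HCC1806, against 1.03% to 6.15% of all genes. It gave 55 to 58 between the lines, against 67.1% to 73.8%. For MDA-MB-468 and the interaction it gave 0, against 0.0696% to 0.336% and 0.0329% to 0.576% of all genes. Medians ran from -0.35 to -0.09 in HCC1806, -0.20 to 0.01 in MDA-MB-468, 1.05 to 1.32 between the lines and 0.02 to 0.29 for the interaction. Summed log2 ratios ran from -0.36 to -0.07, -0.19 to 0.02 and 1.19 to 1.46 for the first 3. Of the named genes in HCC1806, HIST1H2AG ran from -0.39 to 0.044, HIST1H4D from -0.19 to 0.029, HIST1H4H from -0.22 to 0.33 and HIST3H2A from -0.0078 to 0.28. In MDA-MB-468 the fitted log2 value of HIST2H2BB, which rests on 3 counts, ran from 0 to 3.50. Pathway calls ran from 1 to 20 in HCC1806 and 0 to 1 for the interaction. Counts were few for the 4 genes not tested, and in MDA-MB-468 for HIST2H2BA, HIST2H2BB and HIST2H3DP1, although its libraries held more counts than those of HCC1806. Of the genes not tested, HIST2H3C, HIST2H2AA4 and HIST2H4B shared 100%, 97.1% and 97.2% of their 50-base words with other genes, and HIST1H4G shared 0%. The cause of the low counts was not tested.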

Other observations

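Among the rows with PS in the name, which were not counted with the 70 genes, HIST1H1PS1 had the most counts, 643 over the 12 libraries. It gave 2.17, 3.63 and 2.37 CPM in the HCC1806 controls, 3.04, 2.64 and 2.57 CPM in the depleted HCC1806 libraries, 0.920, 1.34 and 1.15 CPM in the MDA-MB-468 controls and 1.03, 1.53 and 1.35 CPM in the depleted ones. HIST1H2APS4, with 382 counts, ran the other way between the lines, with 0.584, 0.358 and 0.296 CPM in the HCC1806 controls and 1.59, 1.86 and 1.52 CPM in the MDA-MB-468 controls.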
